A study of Mus musculus with 12 samples.

Results

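RNA-seq was performed on inguinal and epididymal white adipose tissue (iWAT and eWAT) of mice fed a high-fat diet (HFD), and the transcripts described are those of the immunoglobulin gene segments, the pieces from which antibody genes are assembled. Segments were chosen by their symbol (heavy chain, kappa or lambda V, D, J or constant genes) and by an average log2 CPM (read counts scaled to the size of the library) of at least 0 in iWAT, which is an average CPM of 1. Of the 260 immunoglobulin segments among the 27179 genes of the tables, 95 met this limit, and 50.9% of all genes did. The limit uses iWAT values, so the levels in iWAT that follow are a description of a chosen set. The samples formed 4 groups of 3, namely iWAT saline, iWAT GIP, eWAT saline and eWAT GIP, 12 samples in all. All came from control animals of the strain C57/BL6, without a stated genotype beyond that, and the age of these animals is not given in the labels. Every animal had 3 subcutaneous injections over 10 days on chow and then 5 injections over 2 weeks of HFD. The saline groups received saline throughout, whereas the GIP groups received the acylated GIP receptor agonist (D-Ala2)GIP[Lys37PAL] as the last injection on chow and, at 2 pmol/kg, as all 5 injections on HFD.

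The value available for each segment was the authors' average log2 CPM over the 6 samples of a tissue, both treatments pooled. The columns of values per sample carry names that match no sample label and were not used, so the depth of each sample is unknown here. The authors' own comparison of the treatments was not used either, so no standard deviation, comparison of saline with GIP or test is given, and the number of mice that carry a level is unknown. The average is the log of a mean abundance, so that 1 rich library can raise it. The tables of iWAT and eWAT were normalised separately, and their levels are set side by side without a test. Over the 13197 genes at an average log2 CPM of at least 0 in both, the median difference between iWAT and eWAT was 0.01 on the log2 scale. Each table also has a lowest value, that of a gene with no reads, at a log2 CPM of -2.82 in iWAT and -2.33 in eWAT. In bulk tissue, fewer cells of a type and less RNA per cell cannot be told apart.

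An antibody consists of paired heavy and light chains. During B cell development, recombination joins 1 V, D and J segment of the heavy locus, and 1 V and J segment of the kappa or lambda locus, and splicing attaches the product to a constant gene. The heavy constant gene sets the class: Ighm encodes mu of IgM and Ighd delta of IgD, both made by naive B cells, whereas the gamma, epsilon and alpha genes are used after class switching. Plasma cells transcribe the rearranged genes at very high rates. The inguinal fat pad of the mouse holds a lymph node, in which B cells are abundant.

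The segments at the limit in iWAT were unevenly divided between the loci. Of the kappa segments, 54 of 109 were at the limit, against 33 of 142 of the heavy locus and 8 of 9 of the lambda locus. All 12 constant genes met it. So did 50 of 103 kappa V segments, 22 of 120 heavy V segments and all 3 lambda V segments, together with 8 of 12 J segments and 0 of 10 D segments. The median over the 95 segments was a log2 CPM of 0.94, with a range from 0.01 to 9.25. Just inside the limit were Igkv5-48 at 0.03 and Igkv9-120 at 0.01, and just outside were Ighv1-9 at -0.01 and Igkv4-57-1 at -0.05. Ighm, Igkc, Ighg2b, Ighg2c, Ighd, Ighg1 and Iglc2 stood above all V and J segments, of which Igkv4-57 was the highest at 3.94. The lower constant genes, such as Igha at 2.54 and Ighe at 1.15, lay among the levels of the V segments.

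**Figure D1:**
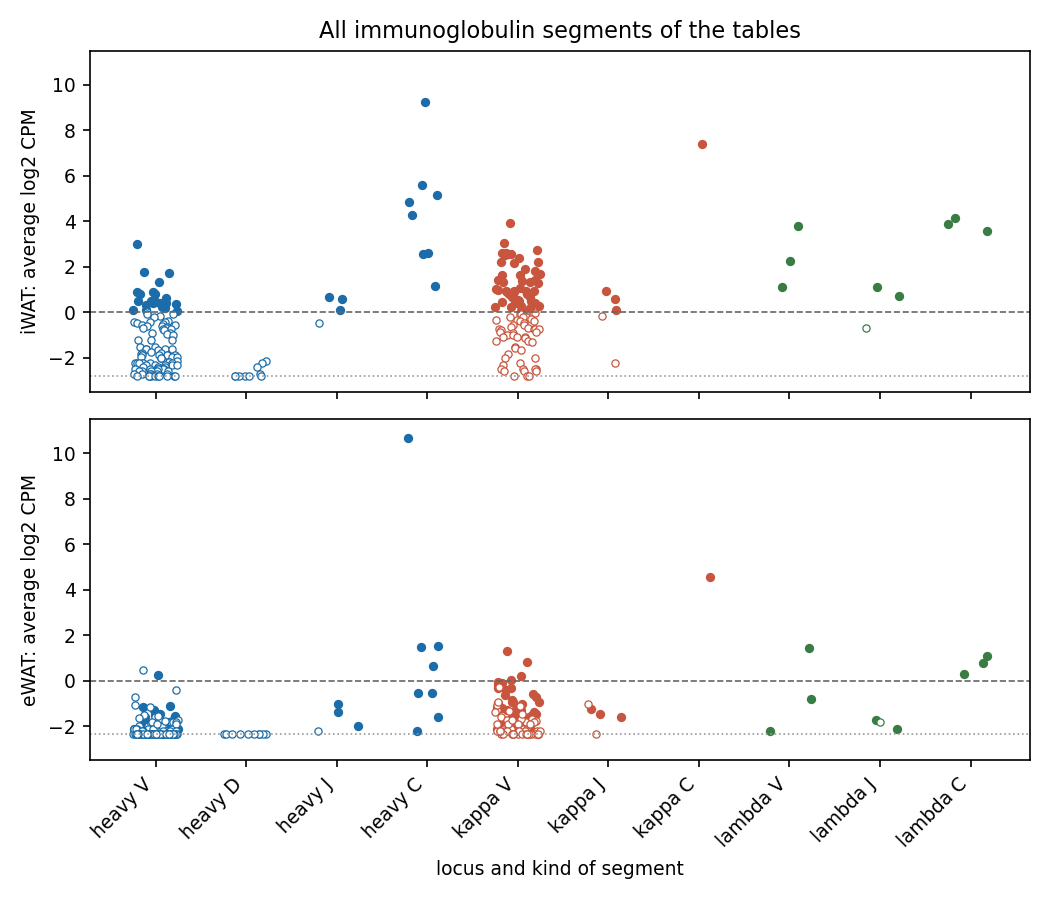
Average log2 CPM of all 260 immunoglobulin segments in iWAT (top) and eWAT (bottom), by locus and kind of segment (each point is 1 segment, filled if it is among the 95 at the limit in iWAT, open if not; the dashed line is the limit of 0 and the dotted line the lowest value of the table). In iWAT the constant genes reach 9.25, while all 10 D segments lie near the lowest value, and in eWAT most V segments lie under the limit.

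The J segments are the shortest pieces at the limit and show how the letters of a segment can be set beside its level. They encode the last residues of the variable domain, with a conserved Phe-Gly-X-Gly motif in light chains and Trp-Gly-X-Gly in heavy chains. All 12 are printed 5′ to 3′ on the coding strand from the GENCODE vM21 transcripts of GRCm38, with the match to that motif in capitals (TTCGGNNNNGGN in light chains, TGGGGNNNNGGN in heavy chains, on the coding strand).
Igkj1: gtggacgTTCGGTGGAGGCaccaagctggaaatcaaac
Igkj2: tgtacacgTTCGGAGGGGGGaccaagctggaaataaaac
Igkj3: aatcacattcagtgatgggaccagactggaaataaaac
Igkj4: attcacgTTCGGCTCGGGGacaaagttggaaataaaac
Igkj5: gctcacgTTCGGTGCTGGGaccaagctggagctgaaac
Iglj1: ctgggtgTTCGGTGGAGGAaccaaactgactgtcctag
Iglj2: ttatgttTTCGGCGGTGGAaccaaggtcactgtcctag
Iglj3: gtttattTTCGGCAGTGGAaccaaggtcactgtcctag
Ighj1: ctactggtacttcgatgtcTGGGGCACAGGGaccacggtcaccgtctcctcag
Ighj2: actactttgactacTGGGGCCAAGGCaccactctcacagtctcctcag
Ighj3: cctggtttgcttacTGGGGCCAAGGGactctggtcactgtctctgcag
Ighj4: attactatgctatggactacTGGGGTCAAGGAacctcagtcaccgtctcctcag

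The light-chain motif was found in 7 of 8 light J segments and the heavy-chain motif in 4 of 4 heavy ones. For comparison, the light motif stood in 0.150% and the heavy motif in 0.999% of 3713008 windows of 38 bases from protein-coding transcripts, read on both strands. The heavy J segments, at 48 to 54 bases, are longer than these windows. The motif is a known feature of J segments, so these counts describe them and are not a test. The exception was Igkj3, at chr6:70723223-70723260 on the plus strand, whose level was a log2 CPM of -2.24 in iWAT and -2.33 in eWAT, the latter being the lowest value of that table. The other 4 kappa J segments lie within the same cluster upstream of Igkc. Their levels in iWAT were 0.93 for Igkj1, 0.58 for Igkj2, -0.19 for Igkj4 and 0.08 for Igkj5, all more than 2 log2 units above Igkj3. Igkj3 is known in the mouse as a J segment that is not used. Whether the missing letters bear on its level was not tested.

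At the heavy locus, Ighj2 (chr12:113429468-113429515, minus strand) had a log2 CPM of 0.65 in iWAT and -1.40 in eWAT, and Ighj4 (chr12:113428514-113428567) had 0.59 and -2.01. Ighj1 was at 0.09 in iWAT and -1.03 in eWAT, and Ighj3 missed the limit at -0.48 in iWAT. At the lambda locus on chromosome 16, Iglj2 was at 1.10 in iWAT and Iglj3 at 0.71, while Iglj1 missed the limit at -0.70. Iglj2 lies wholly inside an annotated exon of Iglc2 on the same strand, all 38 of its bases, so its reads and those of Iglc2 cannot be told apart without knowing how reads in both genes were counted. No J segment was at the limit in eWAT.

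The D segments add the letters at the centre of the heavy chain's most variable antigen-binding loop. They measure 11 to 23 bases, less than the 40-base reads of this study, and a read can only cover 1 together with its neighbours. Ighd1-1, Ighd2-4 and Ighd4-1 show the range of lengths.
Ighd1-1: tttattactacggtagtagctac
Ighd2-4: tctactatgattacgac
Ighd4-1: ctaactgggac
In iWAT these were at a log2 CPM of -2.25, -2.42 and -2.17, the last being the highest of the 10 D segments, of which 6 were at the lowest value. In eWAT all 10 were at the lowest value. The levels of D segments are therefore those of pieces shorter than a read, and light J segments of 38 bases are shorter than a read as well.

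Among the constant genes, Ighm and Igkc were the most abundant in iWAT. Ighm (chr12:113418558-113422730, minus strand) had an average log2 CPM of 9.25, a CPM of 607.6 and rank 176 of 27179 genes. Igkc, the kappa constant gene (chr6:70726435-70726966, plus strand), had 7.39, a CPM of 168 and rank 823. Levels of different genes were compared per kb of annotated exon. On that scale Ighm had 322 CPM per kb and Igkc 316, a ratio of 1.02. In eWAT the ratio was 19.6, with Ighm at 870 CPM per kb and Igkc at 44.5.

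The delta and the switched heavy genes followed. Ighd, which shares a primary transcript with Ighm in naive B cells, was at a log2 CPM of 4.87 in iWAT and 15.3 CPM per kb, which makes Ighm 21.0 times Ighd per kb. Of the gamma genes, which encode IgG subclasses, Ighg2b had the highest log2 CPM at 5.60, ahead of Ighg2c at 5.17, Ighg1 at 4.28 and Ighg3 at 2.62. Per kb the order of the leading pair turned, with 27.2 CPM per kb for Ighg2c and 18.2 for Ighg2b. With the length of the shortest annotated transcript in place of all exons, Ighg2b was again ahead, and the order of this pair is therefore not settled. Igha, the alpha gene of mucosal IgA, was at 2.54 and 2.18 CPM per kb. Ighe, the epsilon gene of IgE, was lowest at 1.15 and 1.40 CPM per kb. Per kb, the gamma genes made up 93.9% of the switched constant genes in iWAT.

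The light-chain constant genes in iWAT were dominated by kappa. Igkc took 78.2% of the light-chain constant level per kb, and the 3 lambda genes shared the rest. Iglc1 was at a log2 CPM of 3.58, Iglc2 at 4.14 and Iglc3 at 3.89. Per kb these lay close together, at 26.3, 28.7 and 32.8 CPM per kb. In eWAT the kappa share was 80.8%.

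The kappa locus took the largest part of the V level in both tissues. Of the summed CPM of the 75 V segments at the limit, kappa took 70.8% in iWAT and 70.5% in eWAT, heavy 19.6% and 20.1%, and lambda 9.61% and 9.46%. Many eWAT values lie close to the lowest value of the table. With that value taken off, the eWAT shares were 73.1% for kappa, 13.8% for heavy and 13.1% for lambda. With the lowest value of iWAT taken off, the heavy share in iWAT was 19.1%. The segments summed were chosen by their level in iWAT, so the eWAT sums leave out any that are high in eWAT alone. Ighv11-2, a heavy V segment at a log2 CPM of 0.45 in eWAT, is left out. The heavy shares of the tissues are thus not summed on equal terms. V segments at 1 locus are alternatives, and a sum over a locus is less exposed to reads that fit several of them than a single segment is. These shares have no error, since the values are pooled.

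Within the kappa locus, Igkv4-57 was the highest V segment in iWAT, at a log2 CPM of 3.94 and a CPM of 15.4. It was followed by Igkv3-4 at a CPM of 8.19, Igkv8-30 at 6.64 and Igkv1-117 at 6.07. These 4 took 23.9% of the summed CPM of the kappa V segments at the limit. The heavy locus was more concentrated by this measure. Ighv1-15 led at a CPM of 8.11, followed by Ighv1-52 at 3.39, Ighv1-26 at 3.28 and Ighv1-42 at 2.50, and these 4 took 41.0% of the heavy sum. Of the lambda V segments, Iglv1 at a CPM of 13.8 took 67.0% of the lambda sum, Iglv2 at 4.69 took 22.7% and Iglv3 at 2.12 took 10.3%. Fewer heavy than kappa segments were summed, 22 against 50, and a sum over fewer segments gives the leading 4 a larger share.

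By family, the counts at the limit are set beside 22 of 120 for all heavy V and 50 of 103 for all kappa V segments. Most families are small and their members can share reads, and no family was tested against its locus. All 4 members of Ighv14 were at the limit, as were 13 of 60 of Ighv1, the largest heavy family. No segment of Ighv2 (0 of 9) or Ighv8 (0 of 10) was, and 1 of 10 of Ighv5. Among kappa families, Igkv4 had 10 of 28, Igkv8 6 of 11, Igkv3 and Igkv6 6 of 9 each and Igkv5 4 of 5. Segments annotated as V pseudogenes were mostly low, with 1 of 12 at the limit, Igkv4-60 at 0.22 in iWAT and at the lowest value in eWAT.

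The V segments at the limit were spread along both large loci. Taking the 120 heavy V segments in order of distance from Ighm, the nearest 40 held 8, the middle 40 held 7 and the farthest 40 held 7. Of the 102 kappa V segments with an annotated position, the nearest 34 to Igkc held 19, the middle 34 held 17 and the farthest 34 held 14. Kappa V segments lie in both orientations, and those that must be joined by inversion are on the other strand from Igkc. At the limit were 19 of 38 on the plus strand, that of Igkc, and 31 of 64 on the minus strand.

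**Figure D2:**
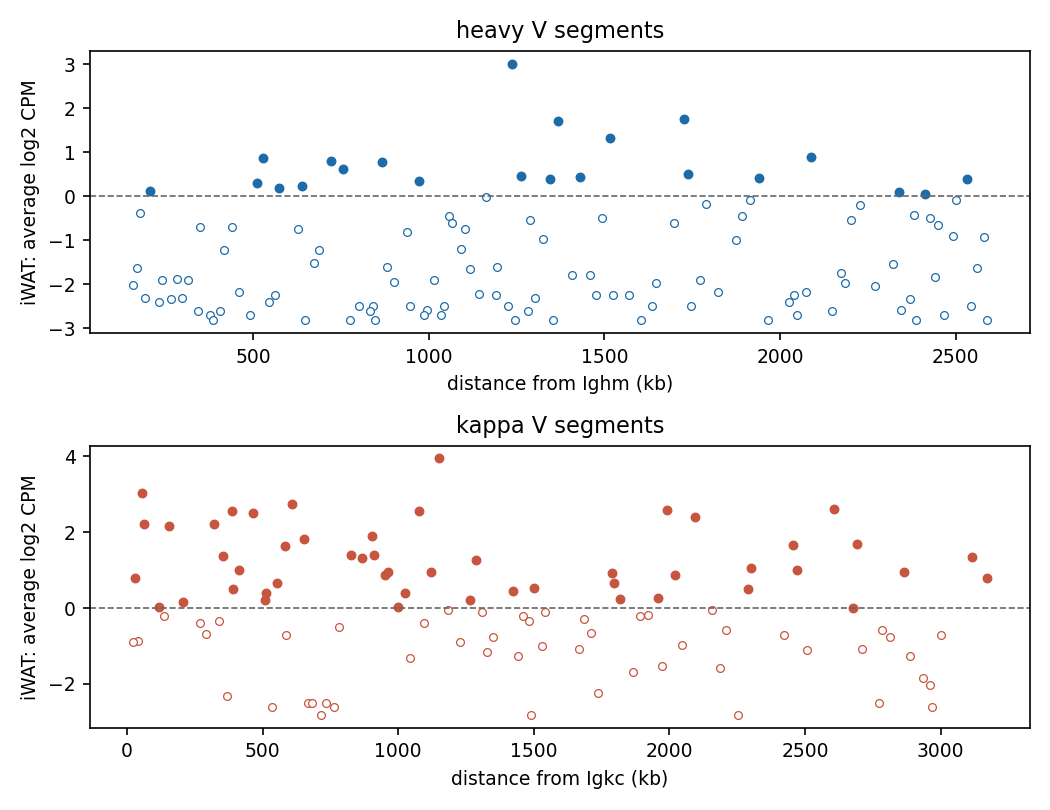
Average log2 CPM in iWAT (vertical) of heavy V segments by distance from Ighm (top) and of kappa V segments by distance from Igkc (bottom), both in kb (each point is 1 V segment, filled at or above the limit of 0, which the dashed line marks). Filled points occur along the whole of both loci, and the highest are Ighv1-15 at 3.02 and Igkv4-57 at 3.94.

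Many V segments resemble each other so closely that a 40-base read can fit more than 1 of them. For the 75 V segments at the limit, a median of 42.4% of the runs of 40 bases in their annotated transcripts also occur in another annotated gene, and 27 share more than 50% of them. Only 6 share none. Among the 150 other V segments with a transcript, the median was 29.6%, 28 shared more than 50% and 24 shared none. The counting step and its treatment of reads that fit several genes are not given in the sources used here, and how far this moves the level of a single V segment was not tested.

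The leading heavy and kappa V segments show what such a read would see. Each is printed beside its nearest relative among the V segments of the same locus in the tables, with the differing bases in capitals. The stretch shown is the 120 aligned coding bases that hold the most differences of the pair, so the rest of the pair differs less. Igkv4-57 (chr6:69575975-69576500, minus strand) and Igkv4-55 (chr6:69607275-69607828, minus strand) are 94.9% identical over 352 aligned coding bases, and Ighv1-15 (chr12:114657353-114657786, minus strand) and Ighv1-23 (chr12:114764450-114764883, minus strand) are 98.0% identical over 351.
Igkv4-57: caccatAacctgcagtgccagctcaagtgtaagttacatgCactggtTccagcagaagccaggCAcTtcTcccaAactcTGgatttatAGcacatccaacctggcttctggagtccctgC
Igkv4-55: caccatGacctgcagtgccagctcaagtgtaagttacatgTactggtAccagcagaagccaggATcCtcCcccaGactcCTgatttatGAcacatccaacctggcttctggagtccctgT
Ighv1-15: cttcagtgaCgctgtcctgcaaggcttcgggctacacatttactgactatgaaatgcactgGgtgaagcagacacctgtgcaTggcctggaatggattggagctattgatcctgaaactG
Ighv1-23: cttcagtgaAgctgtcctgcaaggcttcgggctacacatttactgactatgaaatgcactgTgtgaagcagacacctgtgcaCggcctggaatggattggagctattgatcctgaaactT

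In these stretches the kappa pair differs at 13 bases, of 18 over all aligned coding bases. The heavy pair differs at 4, of 7 over all aligned coding bases. Igkv4-57 was at a log2 CPM of 3.94 in iWAT and Igkv4-55 at 0.94. Ighv1-15 was at 3.02 and Ighv1-23 at 0.38. Within both pairs the levels lay more than 2 log2 units apart. Of the 40-base runs of Igkv4-57, 24.6% occur in Igkv4-55, and 29.8% of those of Ighv1-15 occur in Ighv1-23. Counted over all annotated genes, these shares were 60.7% for Igkv4-57 and 30.1% for Ighv1-15. Igkv4-61 shares more runs with Igkv4-57 than Igkv4-55 does, 88 against 77.

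**Figure D3:**
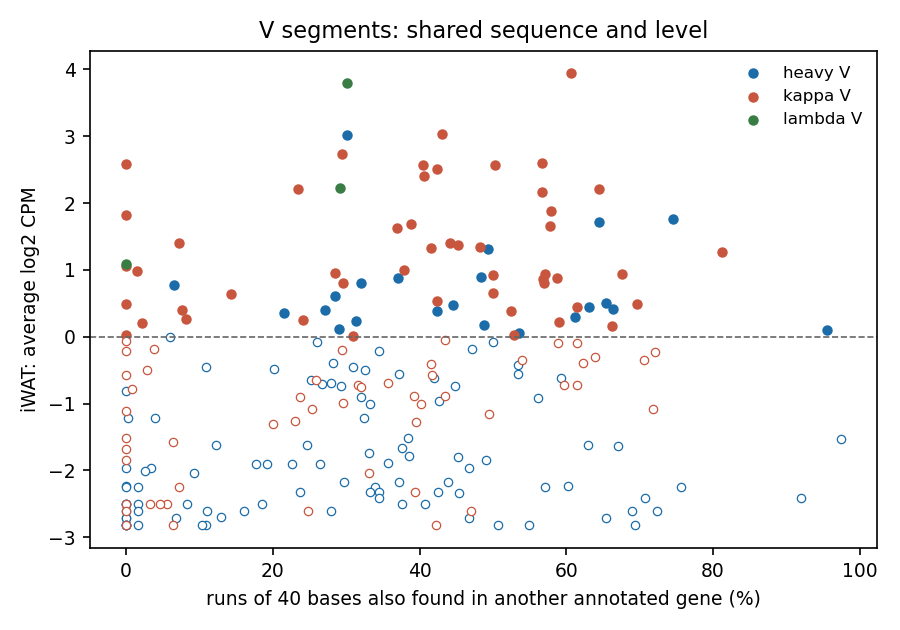
Share of the 40-base runs of each V segment that also occur in another annotated gene (horizontal, in percent) and its average log2 CPM in iWAT (vertical), coloured by locus (each point is 1 of 225 V segments, filled at or above the limit of 0, dashed). Segments at the limit are found from 0% up to 95.5% shared, and Igkv4-57 at 3.94 is among those sharing more than 50%.

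The lambda locus, which is small in the mouse, has its own near copies. Iglv1 and Iglv2 are 96.9% identical over 351 aligned coding bases, and Iglc2 and Iglc3 are 96.5% identical over 314, whereas Iglc1 is 73.2% and 73.9% identical to those 2. The first 120 aligned coding bases of each pair, which hold the most differences of any such stretch, are printed with the differing bases in capitals.
Iglv1: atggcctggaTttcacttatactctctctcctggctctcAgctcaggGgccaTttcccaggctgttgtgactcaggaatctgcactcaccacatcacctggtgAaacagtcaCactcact
Iglv2: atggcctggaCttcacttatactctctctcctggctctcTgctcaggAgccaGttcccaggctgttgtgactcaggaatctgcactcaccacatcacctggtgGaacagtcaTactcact
Iglc2: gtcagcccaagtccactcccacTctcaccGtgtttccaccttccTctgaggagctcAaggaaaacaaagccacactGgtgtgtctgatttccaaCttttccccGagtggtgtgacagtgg
Iglc3: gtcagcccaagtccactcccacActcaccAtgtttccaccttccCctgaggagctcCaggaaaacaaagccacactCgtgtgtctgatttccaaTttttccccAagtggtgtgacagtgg

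Of the 40-base runs of Iglc3, 30.8% occur in another gene, with 16.9% occurring in Iglc2, and 12.2% of those of Iglc2 occur in another gene. How far this moves the levels of the pair was not tested. Part of Iglc3 also overlaps an annotated gene on the opposite strand, over 93 of its 452 exon bases. By contrast Ighm, Igkc, Ighd, Igha, Ighe and Iglc1 share no run of 40 bases with another annotated gene, and the gamma genes share between 0.784% (Ighg1) and 9.02% (Ighg2c). Most 40-base runs of each constant gene thus occur in 1 annotated gene only, and the shared part is largest in Iglc3, followed by Iglc2.

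In eWAT most of the segments were far lower, and Ighm was higher. Of the 95 segments, 14 were at a log2 CPM of at least 0 in eWAT, against 95.4% of all genes at the limit in iWAT. Their median was -1.47 in eWAT, and 3 were at its lowest value. A difference of more than 1.5 on the log2 scale with iWAT above eWAT was found for 85 of the 95, and for 4.68% of all genes at the limit in iWAT. With eWAT above iWAT there were 2 segments, Ighm and Igkv4-72, against 46.5% of all genes at the limit. The limit was set on iWAT, so a shift towards lower values in eWAT is favoured by the choice of segments. The same choice need not bear equally on all genes at the limit, of which 95.4% reached it in eWAT too. The percentages of all genes are thus not a background on equal terms. With no limit, 110 of 260 segments were higher in iWAT by over 1.5. Another 63 were higher in eWAT, where the lowest value is higher too. With the limit at a log2 CPM of 1, these counts were 42 and 1 of 45 segments.

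**Figure D4:**
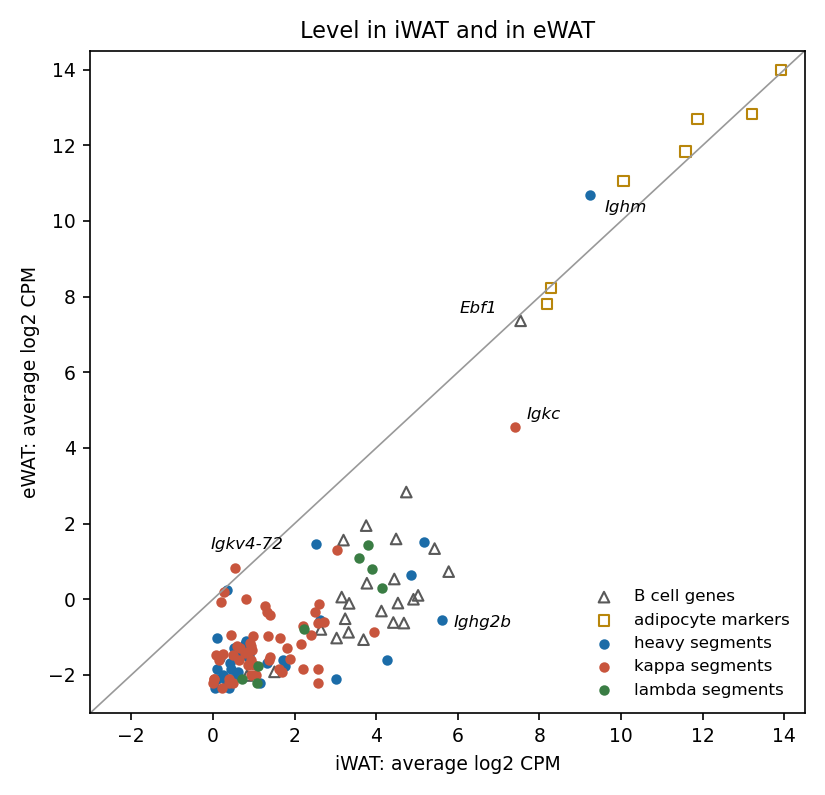
Average log2 CPM in iWAT (horizontal) and eWAT (vertical) of the 95 immunoglobulin segments by locus (filled circles), of 24 B cell genes (triangles) and of 7 adipocyte markers (squares); the line marks equal levels. Of the segments only Ighm and Igkv4-72 lie above the line, and of the B cell genes Ebf1, at 7.54 and 7.36, lies closest to it.

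The 2 segments against the trend differ in size. Ighm was at a log2 CPM of 9.25 in iWAT and 10.68 in eWAT, where its CPM of 1641 gave it rank 58 of 27179 genes. Its level in eWAT was 2.70 times that in iWAT. None of the 1847 runs of 40 bases in its transcripts occurs in another annotated gene. Igkv4-72 was at 0.53 in iWAT and 0.83 in eWAT, a difference of 0.30, for which no error can be given. Whether all mice or a few carry the level of Ighm in eWAT cannot be read from a pooled average, and the share of saline and GIP samples in it is unknown as well.

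The other constant genes did not share the direction of Ighm. Over the 11 constant genes other than Ighm, the summed CPM was 360 in iWAT and 37.9 in eWAT, 9.50 times lower. Per kb, Ighm was 21.0 times Ighd in iWAT and 1053 times Ighd in eWAT. Of the constant level of the heavy locus per kb, Ighm took 81.3% in iWAT and 99.5% in eWAT. In the protein, every heavy chain of an IgM molecule is paired with a light chain. The transcript of Igkc was at rank 823 in iWAT and rank 5731 in eWAT, with a CPM of 168 and 23.7. What the unlike levels of the Ighm and Igkc transcripts mean for IgM was not tested.

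Among the other constant genes the difference between the tissues ran from 1.07 to 6.15 on the log2 scale. It was largest for Ighg2b, at 5.60 in iWAT and -0.54 in eWAT, or 70.8 times, and for Ighg1, at 4.28 and -1.60, or 59.0 times. These folds depend on the lowest value of the eWAT table. With each tissue's own lowest value taken off, Ighg1 was 148 times, Ighe 125 times and Ighg2b 99.3 times higher in iWAT. The order of the genes then turned. What was left in eWAT was 0.13 CPM for Ighg1, 0.017 for Ighe and 0.488 for Ighg2b, so a few reads move these folds. The difference was smallest for Igha, at 2.54 and 1.46. Ighg2c was at 1.52 in eWAT, Ighd at 0.65, Ighg3 at -0.56 and Ighe at -2.22, close to the lowest value. The switched genes were composed differently, with gamma taking 93.9% per kb in iWAT and 70.7% in eWAT, and alpha 25.9% in eWAT. The eWAT shares rest on levels near 1 CPM, where a few reads count for much.

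**Figure D5:**
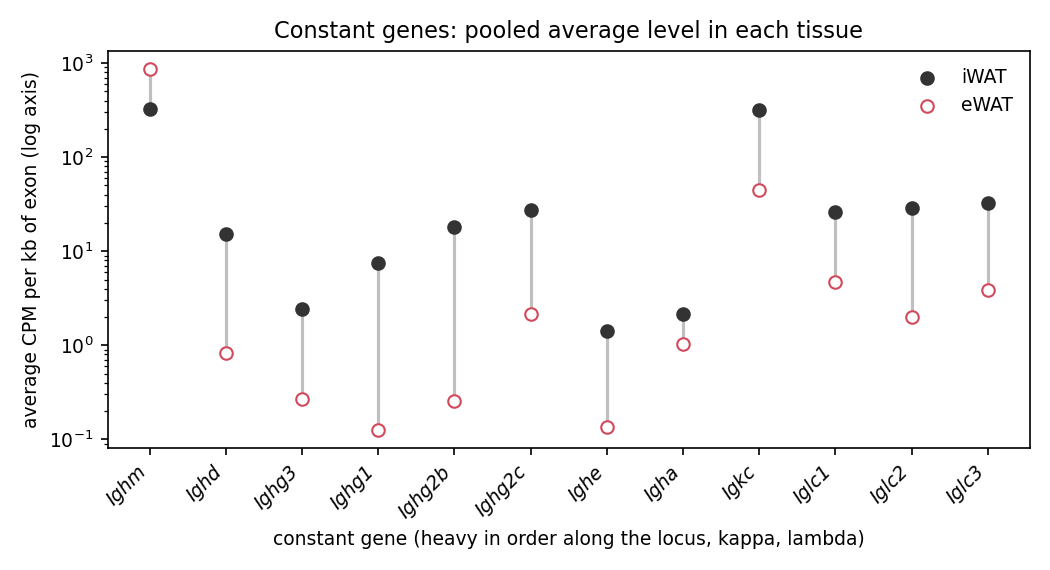
Average CPM per kb of annotated exon (log axis) of the 12 constant genes in iWAT (filled) and eWAT (open), joined by a line for each gene, without error bars because each value is 1 pooled average. Ighm alone is higher in eWAT, at 870 against 322 CPM per kb, and Igkc lies at 44.5 against 316.

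The light chains and the V segments shifted in the same direction as the other constant genes. Over the lambda constant genes, Iglc1 was at 1.09 in eWAT, Iglc3 at 0.79 and Iglc2 at 0.30, in an order opposite to that of their log2 CPM in iWAT. Summed over the segments at the limit, kappa had a CPM of 324 in iWAT and 50.9 in eWAT, and lambda 68.8 and 9.13. Heavy without Ighm had 194 and 17.7, or 189 and 11.3 with each tissue's own lowest value taken off. The largest kappa differences were those of Igkv4-57 (3.94 and -0.85, or 4.79 on the log2 scale) and Igkv8-19 (2.57 and -2.22, or 4.78). At the lambda locus they were those of Iglc2 (3.84) and Iglv3 (3.30). Igkv8-19 and Iglv3 lie just above the lowest value in eWAT. With each tissue's own lowest value taken off, the order turned, with 347 times for Igkv8-19 against 42.8 for Igkv4-57. It likewise turned at the lambda locus, with 118 times for Iglv3 against 16.9 for Iglc2.

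Besides 8 of the 12 constant genes, 6 V segments were at the limit in eWAT too. Iglv1 was at 1.44 and Igkv3-4 at 1.29, both lower than in iWAT, and Igkv4-72 was at 0.83. Ighv6-3 (0.35 in iWAT and 0.25 in eWAT), Igkv4-91 (0.26 and 0.18) and Igkv3-2 (0.80 and 0.01) completed the group. Ighv6-3 and Igkv4-91 thus had nearly the same level in both tissues, at about 1 CPM.

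The genes of B cell identity and receptor signalling, which are not assembled from segments, are set beside them. All 24 B cell genes of the list were at a log2 CPM of at least 0 in iWAT and 12 in eWAT, and their median was 3.95 in iWAT and -0.05 in eWAT. The difference exceeded 1.5 for 23 of them. The exception was Ebf1, a transcription factor of B cells that adipocytes express too. Cd79a, the signalling chain of the B cell receptor, was at 5.78 and 0.73, and Ms4a1, which encodes CD20, at 5.03 and 0.10. The 5 B cell markers summed to a CPM of 163 in iWAT and 6.52 in eWAT. None of them was higher in eWAT, in contrast to Ighm.

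Of the 13 plasma cell and class switch genes, 11 were at the limit in iWAT and 9 in eWAT. A difference of more than 1.5 was found for 4 of them. Among these were Jchain, which links IgM and IgA into polymers, at 5.79 in iWAT and 3.17 in eWAT, Mzb1, a chaperone of antibody secretion, at 3.27 and -0.27, and Pim2, a survival kinase, at 2.39 and 0.70. Of those at the limit in iWAT, Sdc1 and Tent5c were the 2 that lay higher in eWAT. Xbp1, at 8.81 and 8.50, and Txndc5 are expressed in many secretory cells. The plasma cell markers Prdm1 and Tnfrsf17 were under the limit in iWAT, at -0.01 and -0.21.

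The recombination genes were close to the lowest values of the tables. Rag1 and Rag2, which cut the segments during B cell development in the bone marrow, were at -2.17 and -2.60 in iWAT and at -2.33 and -2.11 in eWAT. The surrogate light chain genes Vpreb1, Vpreb2 and Igll1 and the terminal transferase Dntt were also under 0 in both tissues. The 4 of 10 genes of this list at the limit, Xrcc4, Prkdc, Dclre1c and Lig4, serve DNA repair in all cells, and none differed by more than 1.5. The antibody receptors differed less than the segments. Fcgrt, the neonatal Fc receptor, which recycles IgG, was at 9.25 in iWAT and 8.83 in eWAT, and of 10 receptor genes only Fcgr4, an IgG receptor of myeloid cells, differed by more than 1.5, at 1.21 and -0.59.

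Markers of some other cells moved along with the segments, and those of others did not. The 5 T cell markers summed to a CPM of 102 in iWAT and 11.2 in eWAT, each higher in iWAT by more than 1.5. Of the 6 markers of lymph node stroma and vessels, whose sum was 83.6 and 24.4, 4 were higher in iWAT by more than 1.5. Ccl19, Cxcl13 and Glycam1, chemokines and a ligand of lymphocyte homing, were at 2.72, 4.97 and 1.90 in iWAT and at -1.05, 1.38 and -2.33 in eWAT, whereas Chst4, a sulfotransferase of homing vessels, went the other way at 0.52 and 2.66. The epithelial keratins Krt8 and Krt18 were at -1.44 and -1.49 in iWAT and at 2.95 and 2.14 in eWAT. The 7 adipocyte markers, all at a log2 CPM of 7.81 or more, summed to 33341 and 36472, and none differed between the tissues by more than 1.5. None of the 3 macrophage and 3 endothelial markers did either. The part of lymph node tissue or of other cells in the immunoglobulin levels was not tested.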

How the data were processed

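Polyadenylated RNA libraries from 200 ng of RNA of 12 samples were sequenced as paired reads of 40 bases. Per the labels and the methods, trimming was with Trim Galore 0.6.4, alignment to GRCm38 with Rsubread, removal of low counts with DESeq2 1.32.0, and the fit of each tissue with edgeR 3.34.0. The counting step and the annotation are not given in the sources used here. The level used is the average log2 CPM that the authors deposited per gene and tissue, pooled over 6 samples. Of the 27179 genes, 6123 in iWAT and 6814 in eWAT are at the lowest value, so genes without reads remain among these levels. Each table has 6 further columns, 12 in all, with names that match no label, and the authors' own comparison (fold change, likelihood ratio, p-value, FDR and marks made from them). Neither was used, and so the planned edgeR test of GIP against saline was not run. The depth per sample is unknown here.

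Average CPM was 2 to the power of the deposited log2 value. Levels per kb used the union of exons of GENCODE vM21, which matched 259 of 260 segments and all 95 at the limit. Shared runs of 40 bases were searched on both strands of all GENCODE transcripts. Pairs were aligned with Biopython 1.88, and the steps, in Python 3.11.15 with pandas 2.3.3, were tested on simulated data. The named genes were all constant and J genes, the 4 highest V segments of each locus, those at the limit in eWAT, those against the trend, the largest 2 differences of each locus, those next to the limit, and genes of the lists. Ighv1-23, Igkv4-55 and Igkv4-60, the families and the exon overlaps were chosen after their values were seen. The segments and lists were chosen with earlier results of these data known. Alternatives changed the limit, the pseudogenes, the gene length, the lowest value and the centring of the tables. Some genes of the lists are not reported here by name.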

Additional observations from a re-analysis of the deposited data

How the results depend on the processing

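No paired analysis was possible because the columns carry no replicate number. For the same reason the alternatives fixed for the treatment comparison (other scaling, other tests and filters, another pseudocount, leaving out replicates) were not run. With the limit at a log2 CPM of 1, there were 45 segments, of which 7 reached 1 in eWAT, 42 were higher in iWAT by over 1.5 and 1 was higher in eWAT. The sums without Ighm became 515 CPM in iWAT and 57.2 in eWAT, from 587 and 77.7. With no limit there were 260 segments, of which 110 were higher in iWAT by over 1.5 and 63 higher in eWAT, where the lowest value itself lies above that of iWAT, and the sums were 651 and 119. Without pseudogenes the sums were 586 and 77.5. The other alternatives were chosen after seeing the data. With each tissue's own lowest value taken off, the sums were 573 and 59.0, and Ighm over Igkc was 19.7 in eWAT. The kappa share was then 78.4% in iWAT and 82.5% in eWAT, and the gamma share of switched genes 94.1% and 71.5%. The V shares of heavy, kappa and lambda were then 19.1%, 71.0% and 9.91% in iWAT and 13.8%, 73.1% and 13.1% in eWAT, and the heavy sum without Ighm was 189 and 11.3 CPM. With the shortest transcript as length, the kappa share was 76.4% and 79.8%, the gamma share 93.5% and 60.8%, and Ighm over Igkc 1.29 and 24.7. Centring the tables on their median difference moved Ighm to -1.45 from -1.43. Leaving Ebf1 out took the B cell genes from 612 to 426 CPM in iWAT and from 199 to 34.4 in eWAT. The sums without Ighm stayed higher in iWAT, and Ighm stayed higher in eWAT with the tables centred. The order of the tissues turned for each V share when the lowest value was taken off. As deposited, heavy was 19.6% in iWAT and 20.1% in eWAT, kappa 70.8% and 70.5%, and lambda 9.61% and 9.46%. The order of Ighg2b and Ighg2c per kb in iWAT turned with the shortest transcript as length. The depth per sample is unknown, and in eWAT most V and all D and J segments were under 1 CPM.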

Other observations

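Ighv11-2, a V segment known in the mouse from the B-1 cells of the body cavities, was outside the 95 segments, at a log2 CPM of -0.74 in iWAT, but reached 0.45 in eWAT. It was the only segment outside the 95 at a log2 CPM of at least 0 in eWAT. No error can be given for this pooled value, and it was named after its level was seen.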
